A study of Mus musculus with 15 samples.

Results

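The 44 genes described here encode proteins that make ribosomes in the nucleolus: subunits and factors of RNA polymerase I, core proteins of the small nucleolar ribonucleoproteins (snoRNPs), nucleolar scaffold proteins, and assembly factors of the small and the large ribosomal subunit. They were taken from a list of symbols with no threshold on a measured value, but the list was drawn up with earlier results of these data known, so their counts beside those of all genes are descriptions. Each symbol matched 1 identifier among the 34259 genes of the count table, and all 44 passed the filter on low counts that left 17497 genes for testing. By role they fall into 6 groups, with 5 genes of polymerase I transcription, 3 of the box C/D snoRNPs, 3 of the box H/ACA snoRNPs, 6 scaffold proteins and regulators, 12 small subunit assembly factors and 15 large subunit assembly factors.

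The data are RNA sequencing of GL261 (mouse glioma cells, wild type in genotype), with 15 libraries in 5 groups of 3, all labelled Day 6 and all with the same batch label. The 3 hydrogel groups, D-gel@GSNP, L-gel@GSNP and also D-gel@NP, held Hoechst-CD133+ cells that spent 20 min on ice in a lyophilised chiral hydrogel and were then kept in medium with a cytokine cocktail. The PBS group was Hoechst-CD133+ cells in medium with PBS and the same cocktail, with no ice step named. The non-SP group was GL261 cells labelled non-SP, called Luci+ in the series' design text, which had neither hydrogel nor cytokines. All groups had fresh medium on days 2 and 4. GSNP and NP are code names that the labels do not spell out, D-gel and L-gel are the submitters' names for the gels, and no dose is given. A hydrogel group set against PBS therefore differs by the gel, what the code stands for and the ice step together, and PBS set against non-SP differs by the cell population and the cytokines together. Nothing in the labels says that the 3 libraries of a group came from separate cultures, so p-values measure the spread between these libraries only.

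Ribosomes are built in the nucleolus. RNA polymerase I transcribes the precursor of the large ribosomal RNAs, snoRNPs guide its chemical modification, and a sequence of assembly factors folds, cuts and packs it with ribosomal proteins into the small and the large subunit before export to the cytoplasm. Proliferating tumour cells, glioma cells among them, are known for large nucleoli and high ribosome output, and the transcription factor MYC is a well-known activator of many genes of this pathway.

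Total counts ran from 16626413 in D-gel@NP 1 to 98102794 in L-gel@GSNP 3. The fit of all genes had a biological coefficient of variation of 8.06%. The D-gel@GSNP libraries lay beside the non-SP libraries over the whole transcriptome: on the first principal component of all tested genes (47.9% of the variance) they stood at 66.1 to 73.4, beside 68.5 to 69.8 for non-SP, against -24.3 to -20.5 for PBS. Pairs within a group and pairs of D-gel@GSNP with non-SP were examined, and none of them held identical values. Their chi-square per degree of freedom over genes was 4.01 to 45.2 within a group and 10.9 to 18.6 between D-gel@GSNP and non-SP. Sampling noise alone would give about 1. A wrong label or shared material in the D-gel@GSNP libraries cannot be told apart from an effect of the treatment, which bears on every comparison that includes them. Of 8 glioma and astrocyte markers Vim was high in all groups, with means of 896 to 1118 CPM. Cd44 averaged 539 CPM in D-gel@GSNP, 891 for L-gel@GSNP, 932 for D-gel@NP, 1156 in PBS and 523 in non-SP. Slc1a2 averaged 1.52 CPM in D-gel@GSNP, 9.53 for L-gel@GSNP, 21.0 for D-gel@NP, 24.5 in PBS and 1.69 in non-SP. The other 5 were low or absent: the highest group mean was 3.70 CPM for Nes, 1.08 for S100b, 0.280 for Gfap and 0.0486 for Slc1a3, and Olig2 had no counts outside PBS, where it had 4. The part of Cd44 and Slc1a2 in the members' differences was not tested. Prom1 encodes CD133. It summed to 8 counts in D-gel@GSNP, 35 counts in L-gel@GSNP, 10 counts in D-gel@NP, 19 counts in PBS and 2 counts in non-SP. The CD133 part of the sort label could therefore not be checked from Prom1 RNA. Abcg2 and Abcb1a, also listed for the sort label, had more counts. Group means of Abcg2 were all within 48.0 to 54.3 CPM. Abcb1a was low in both non-SP and D-gel@GSNP, with means of 18.0 and 18.3 CPM. Its means for PBS, D-gel@NP and L-gel@GSNP were 41.2, 43.2 and 45.6 CPM. Whether these levels match the sort labels was not tested.

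The 44 genes took the largest share of the library in D-gel@GSNP and non-SP cells. Their summed share of all counts was 1.17%, 1.12% and 1.16% in the D-gel@GSNP libraries, 0.849%, 0.847% and 0.776% for L-gel@GSNP, 0.916%, 0.852% and 0.893% for D-gel@NP, 0.841%, 0.828% and 0.831% in PBS, and 1.14%, 1.15% and 1.15% in non-SP. No D-gel@GSNP or non-SP library fell to the level of any library of the other groups. In 38 of the 44 genes the mean level was highest in D-gel@GSNP, and in 35 it was lowest in L-gel@GSNP. Among all 17497 tested genes 25.9% were highest in D-gel@GSNP and 24.5% lowest in L-gel@GSNP. The order D-gel@GSNP, non-SP, PBS, D-gel@NP, L-gel@GSNP from high to low held for 24 of the 44 genes. The share of all tested genes with this full order was not counted. These are counts relative to the library total, and in bulk RNA fewer cells with high levels and less RNA per cell cannot be told apart.

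**Figure D1:**
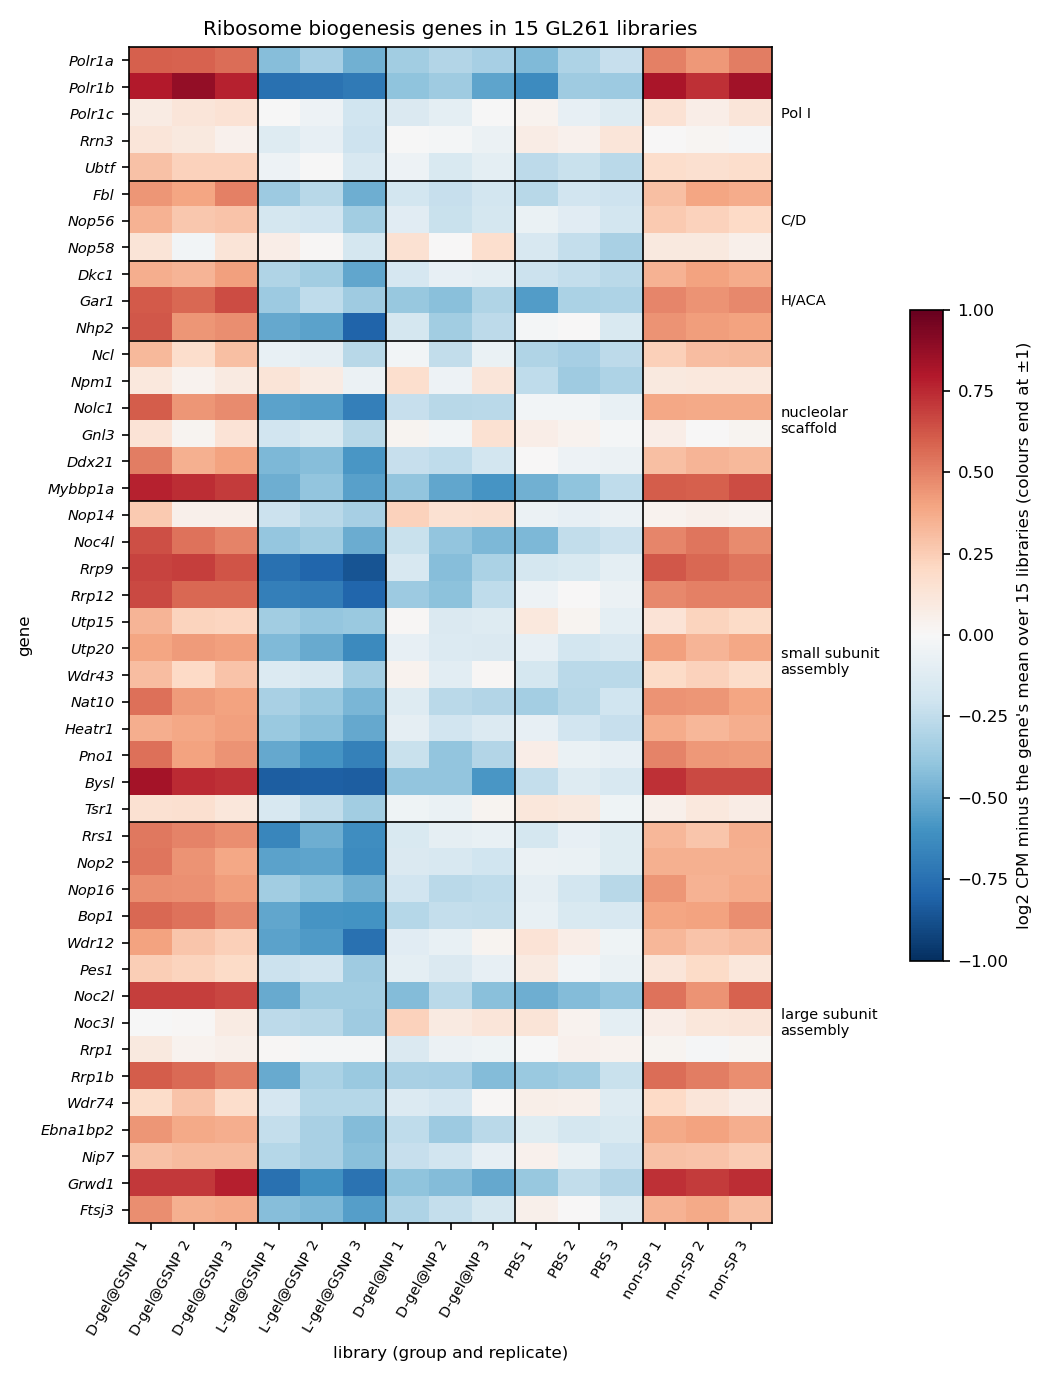
Each row is 1 of the 44 genes, ordered by role, and each column is 1 of the 15 libraries. Colour gives log2 CPM minus the gene's mean over the 15 libraries, with the scale ending at 1 in either direction. The D-gel@GSNP and non-SP columns are high for nearly all genes and the L-gel@GSNP columns are the lowest for 35 of 44 by group mean.

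The separation over these genes alone can be given as a distance between libraries, the Euclidean distance of log2 CPM over the 44 genes. It was 0.444 to 0.836 between a D-gel@GSNP and a non-SP library, beside 0.400 to 0.602 within D-gel@GSNP and 0.312 to 0.348 within non-SP. Between D-gel@GSNP and L-gel@GSNP libraries it was 5.49 to 6.47, between D-gel@GSNP and D-gel@NP 4.25 to 4.83, and between D-gel@GSNP and PBS 3.98 to 4.50. L-gel@GSNP and D-gel@NP libraries lay 1.52 to 2.38 apart. D-gel@NP libraries were nearer to PBS, at 1.05 to 1.26, and L-gel@GSNP libraries lay 2.04 to 2.83 from PBS. Over all tested genes the distance was 79.1 to 86.9 between D-gel@GSNP and non-SP, beside 76.3 to 81.6 within D-gel@GSNP. The nearness of these groups was therefore not particular to the 44 genes. The genes of the ribosomal proteins themselves did not share the pattern of the 44 genes. The median of the cytosolic ribosomal protein genes, as log2 CPM centred on each gene's mean, was -0.03 ± 0.04 in D-gel@GSNP, 0.16 ± 0.11 for L-gel@GSNP, 0.13 ± 0.10 for D-gel@NP, -0.20 ± 0.08 in PBS and -0.03 ± 0.01 in non-SP. For the 44 genes the same measure was 0.41 ± 0.03 for D-gel@GSNP, -0.39 ± 0.07 for L-gel@GSNP, -0.19 ± 0.04 for D-gel@NP, -0.13 ± 0.04 for PBS and 0.35 ± 0.01 for non-SP (SD, n = 3 each).

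Because many of the genes moved together, their promoters were read. RefSeq start sites of the mouse build GRCm38.p6 gave windows from 250 bases before to 50 bases after the start for 39 of the 44 genes; Fbl, Npm1, Rrp12, Rrs1 and Bop1 have none in the table used. The MYC and MAX binding letters CACGTG, the canonical E-box, which reads the same on both strands, were in the window of 9 of the 39 genes (23.1%), against 11.2% of 11132 tested genes with a window and 8.09% of all 26994 genes of the table. CCGGAAG, a motif of ETS factors, on either strand, was in 14 of the 39 (35.9%), against 19.1% of the tested genes. TATAAA on either strand was in 2 (5.13%), against 9.79% of the tested genes, and the NRF1 motif, searched on both strands, in 1 (2.56%), against 2.1%. No searched motif contains another. Below are 30 bases around each E-box, 5′ to 3′ on the strand of the gene, with the E-box in capitals, because Myc is followed through the results.
Grwd1, chr7:45830740-45830769, minus strand: aagggccggagtcgCACGTGtgaaaccgga
Mybbp1a, chr11:72441347-72441376, plus strand: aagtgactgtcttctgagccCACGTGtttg
Nop2, chr6:125131811-125131840, plus strand: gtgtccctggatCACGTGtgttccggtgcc
Pes1, chr11:3963965-3963994, plus strand: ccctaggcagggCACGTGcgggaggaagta
Pno1, chr11:17211540-17211569, minus strand: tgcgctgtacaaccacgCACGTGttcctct
Rrn3, chr16:13780472-13780501, plus strand: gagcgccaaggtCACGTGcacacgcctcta
Rrn3, chr16:13780639-13780668, plus strand: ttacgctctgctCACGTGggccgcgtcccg
Tsr1, chr11:74898092-74898121, plus strand: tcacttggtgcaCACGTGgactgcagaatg
Utp20, chr10:88826765-88826794, minus strand: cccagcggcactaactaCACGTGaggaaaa
Wdr43, chr17:71616220-71616249, plus strand: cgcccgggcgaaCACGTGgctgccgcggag

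With the start base counted as 0, the E-box began at base 34 in Grwd1, 40 in Mybbp1a, -60 in Nop2, 2 in Pes1, 37 in Pno1, 24 in Tsr1, 37 in Utp20 and 17 in Wdr43. Rrn3 had a pair of them, at -215 and -48. A match is a description of these letters, not a site shown to be bound. Genes with an E-box in the window were found at both ends of the results. Grwd1 and Mybbp1a were among the genes with the largest differences below. Rrn3 and Tsr1 were among the 5 that did not pass between D-gel@GSNP and PBS. The others, Nop2, Pes1, Pno1, Utp20 and Wdr43, were called higher in D-gel@GSNP there. Whether a match goes with a call was not tested.

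The genes of polymerase I transcription differed among themselves. Levels are given in replicate order as CPM, the gene's counts relative to the scaled library total. Polr1b, which encodes a core subunit of the enzyme, stood at 69.3, 73.7 and 68.1 CPM for D-gel@GSNP, 23.8, 24.0 and 24.4 for L-gel@GSNP, 30.2, 31.2 and 27.7 for D-gel@NP, 25.8, 31.2 and 31.0 for PBS, and 70.2, 66.3 and 71.5 for non-SP. Its libraries fell into a high set of D-gel@GSNP and non-SP and a low set of the other groups, with no overlap between the sets. Ubtf, whose product UBF opens the ribosomal DNA for transcription and which had the highest level per length of the role at 38.2 FPKM on average, stood at 305, 291 and 292 CPM for D-gel@GSNP, 241, 248 and 223 for L-gel@GSNP, 240.2, 224 and 233 for D-gel@NP, 208, 214 and 206 for PBS, and 281, 279 and 281 for non-SP. D-gel@GSNP was highest and PBS lowest in every library of Ubtf, while L-gel@GSNP and D-gel@NP overlapped. Polr1a, for the largest subunit, averaged 233 CPM for D-gel@GSNP, 117 for L-gel@GSNP, 124 for D-gel@NP, 125 for PBS and 218 for non-SP. Polr1c, for a subunit shared with polymerase III, and Rrn3, for the initiation factor that couples the enzyme to growth signals, varied little. The highest group mean was 1.15 times the lowest for Polr1c and 1.17 times for Rrn3.

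The box C/D proteins guide ribose methylation. Fbl, the methyltransferase fibrillarin, stood at 226, 219 and 235 CPM for D-gel@GSNP, 129, 137 and 118 for L-gel@GSNP, 146, 141 and 146 for D-gel@NP, 137, 145 and 144 for PBS, and 204, 219 and 215 for non-SP. Nop56, a core protein of the same particle and the one with the highest level per length at 66.5 FPKM, stood at 344, 326 and 329 CPM for D-gel@GSNP, 239, 236 and 212 for L-gel@GSNP, 249, 231 and 239 for D-gel@NP, 258, 249 and 238 for PBS, and 324, 317 and 309 for non-SP. In both genes every D-gel@GSNP library was above every non-SP library, and both groups were above the rest, which overlapped in part. Nop58, the partner of Nop56, differed from them, at 273, 246 and 274 CPM for D-gel@GSNP, 262, 252 and 222 for L-gel@GSNP, 278, 251 and 282 for D-gel@NP, 224, 212 and 200.2 for PBS, and 267, 268 and 259 for non-SP. Here PBS had the lowest mean, and neighbouring groups in the order of means all overlapped.

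The box H/ACA proteins guide pseudouridylation and are also part of telomerase. Nhp2, with the highest level per length of this role at 152 FPKM, stood at 258, 227 and 231 CPM for D-gel@GSNP, 117, 116 and 96.4 for L-gel@GSNP, 149, 132 and 139.7 for D-gel@NP, 166, 168 and 151 for PBS, and 228, 223 and 222 for non-SP. All L-gel@GSNP libraries were below all others. Gar1, another core protein, stood at 99.2, 96.4 and 102 CPM for D-gel@GSNP, 50.4, 54.4 and 50.6 for L-gel@GSNP, 49.96, 48.4 and 52.7 for D-gel@NP, 43.9, 52.0 and 52.2 for PBS, and 90.9, 88.7 and 90.5 for non-SP. Every D-gel@GSNP library was above every non-SP library, and L-gel@GSNP, D-gel@NP and PBS overlapped well below. Dkc1, which encodes the pseudouridine synthase dyskerin, averaged 237 CPM for D-gel@GSNP, 139.6 for L-gel@GSNP, 169 for D-gel@NP, 155 for PBS and 237 for non-SP.

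Of the scaffold proteins and regulators, Npm1 (nucleophosmin, a chaperone of the granular nucleolus) was the most abundant member of all, at 591 FPKM. It stood at 1689, 1602 and 1667 CPM for D-gel@GSNP, 1709.8, 1658 and 1506 for L-gel@GSNP, 1759, 1509.7 and 1706 for D-gel@NP, 1314, 1227 and 1263 for PBS, and 1678, 1687 and 1687 for non-SP. Only PBS stood apart, with its 3 libraries below all others. Mybbp1a, a nucleolar protein that binds transcription factors and polymerase I, stood at 749, 735 and 715 CPM for D-gel@GSNP, 314, 334 and 302 for L-gel@GSNP, 335, 307 and 292 for D-gel@NP, 315, 332 and 368 for PBS, and 668, 665 and 689 for non-SP. In each D-gel@GSNP library it was higher than in any non-SP library, and both groups were far above the rest, which overlapped. Nolc1, the snoRNP chaperone also called Nopp140, stood at 431, 385 and 394 CPM for D-gel@GSNP, 196, 194 and 177 for L-gel@GSNP, 243, 234 and 236 for D-gel@NP, 279, 279 and 269 for PBS, and 372, 370.0 and 369 for non-SP. Its groups did not overlap at all. Ncl (nucleolin) averaged 2646 CPM for D-gel@GSNP, 1989 for L-gel@GSNP, 2031 for D-gel@NP, 1783 for PBS and 2680.2 for non-SP. Ddx21, an RNA helicase, averaged 535 CPM for D-gel@GSNP, 285 for L-gel@GSNP, 342 for D-gel@NP, 389 for PBS and 498 for non-SP. Gnl3, the GTPase nucleostemin, averaged 179.6 CPM for D-gel@GSNP, 145 for L-gel@GSNP, 174 for D-gel@NP, 170.4 for PBS and 171 for non-SP. Gnl3 had the narrowest range of the 6, with the highest group mean 1.24 times the lowest.

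**Figure D2:**
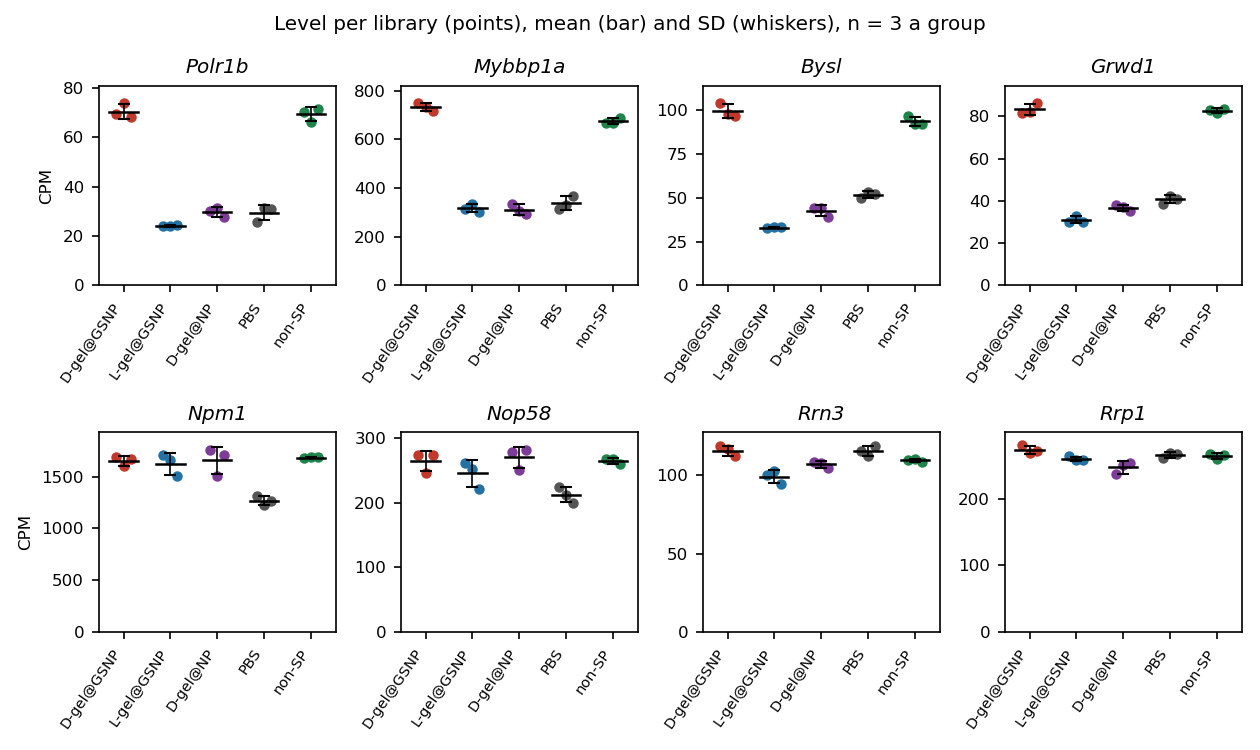
CPM per library for Polr1b, Mybbp1a, Bysl, Grwd1, Npm1, Nop58, Rrn3 and Rrp1, with the group mean as a bar and the SD as whiskers, n = 3 in each group. Npm1 is low in PBS only, at 1227 to 1314 CPM, while Polr1b and Bysl are high in D-gel@GSNP and non-SP and lowest in L-gel@GSNP, and Rrn3 and Rrp1 differ little.

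Small subunit assembly begins with the processome that forms on the nascent transcript. Wdr43, a member of its early UTP-A module and the highest per length of this role at 50.7 FPKM, stood at 297, 276 and 292 CPM for D-gel@GSNP, 219, 215 and 190.1 for L-gel@GSNP, 247, 224 and 243 for D-gel@NP, 213, 199 and 199 for PBS, and 275, 282 and 272 for non-SP. PBS and L-gel@GSNP overlapped at the low end. Rrp9, a protein of the U3 snoRNP, stood at 59.5, 60.5 and 57.6 CPM for D-gel@GSNP, 22.3, 21.6 and 20.5 for L-gel@GSNP, 33.5, 27.9 and 29.97 for D-gel@NP, 33.1, 33.5 and 34.9 for PBS, and 57.5, 55.7 and 54.1 for non-SP. Noc4l, a partner of Nop14, stood at 72.2, 67.2 and 65.1 CPM for D-gel@GSNP, 35.3, 36.3 and 32.7 for L-gel@GSNP, 39.5, 35.1 and 33.8 for D-gel@NP, 33.7, 38.9 and 39.8 for PBS, and 64.6, 66.8 and 64.1 for non-SP. Rrp9 separated L-gel@GSNP from all other groups, whereas for Noc4l L-gel@GSNP, D-gel@NP and PBS overlapped. Nop14, a scaffold of the processome, stood at 125, 108 and 108 CPM for D-gel@GSNP, 90.3, 86.9 and 83.2 for L-gel@GSNP, 123, 116 and 117 for D-gel@NP, 100.5, 98.6 and 100.1 for PBS, and 107, 108 and 107 for non-SP. It was lowest in L-gel@GSNP and high in both D-gel@NP and D-gel@GSNP. Utp20, a very large late-joining protein, stood at 212, 218 and 214 CPM for D-gel@GSNP, 119, 114 and 104 for L-gel@GSNP, 153, 147 and 146 for D-gel@NP, 153, 142 and 145 for PBS, and 215, 205 and 211 for non-SP. L-gel@GSNP was again below all other libraries.

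Among later factors of the small subunit, Bysl (bystin), needed for nuclear maturation of the precursor, had the widest range of group means of all 44 genes, the highest 3.01 times the lowest. It stood at 104, 97.9 and 96.7 CPM for D-gel@GSNP, 32.9, 33.1 and 33.1 for L-gel@GSNP, 44.4, 44.4 and 39.0 for D-gel@NP, 49.6, 53.5 and 52.4 for PBS, and 96.8, 92.3 and 92.3 for non-SP. Its D-gel@GSNP and non-SP libraries overlapped, and PBS, D-gel@NP and L-gel@GSNP followed without overlap. Rrp12, an export factor of the subunits, stood at 80.0, 75.5 and 75.2 CPM for D-gel@GSNP, 31.6, 31.3 and 29.3 for L-gel@GSNP, 39.4, 38.2 and 42.5 for D-gel@NP, 48.9, 50.7 and 48.5 for PBS, and 70.6, 71.7 and 71.9 for non-SP. Pno1, an RNA-binding protein that guards the last cut of the precursor, stood at 79.9, 71.9 and 74.6 CPM for D-gel@GSNP, 38.3, 36.3 and 34.2 for L-gel@GSNP, 46.7, 41.6 and 44.5 for D-gel@NP, 57.2, 52.2 and 51.5 for PBS, and 77.0, 73.7 and 73.3 for non-SP. Both repeated the order of Bysl, with L-gel@GSNP lowest and no overlap among L-gel@GSNP, D-gel@NP and PBS. Of the other members of this role, Nat10, an RNA acetyltransferase, averaged 73.0 CPM for D-gel@GSNP, 40.7 for L-gel@GSNP, 45.3 for D-gel@NP, 43.99 for PBS and 71.4 for non-SP. Heatr1 and Utp15 belong to the processome; Heatr1 averaged 157 CPM for D-gel@GSNP, 88.9 for L-gel@GSNP, 109 for D-gel@NP, 107 for PBS and 153 for non-SP. The means of Utp15 were 86.8 CPM for D-gel@GSNP, 56.2 for L-gel@GSNP, 68.4 for D-gel@NP, 73.3 for PBS and 82.3 for non-SP. Both had their highest mean in D-gel@GSNP and their lowest in L-gel@GSNP. Tsr1, which acts on the late small subunit precursor, averaged 101 CPM for D-gel@GSNP, 77.2 for L-gel@GSNP, 90.2 for D-gel@NP, 95.5 for PBS and 96.9 for non-SP, the narrowest range of the 12.

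Large subunit assembly was represented by 15 genes. Rrp1, the highest per length of them at 78.4 FPKM, stood at 280.2, 269 and 271 CPM for D-gel@GSNP, 263, 258 and 258 for L-gel@GSNP, 236, 251 and 254 for D-gel@NP, 260.3, 269 and 268 for PBS, and 267, 259 and 266 for non-SP. It had the narrowest range of group means of the 44 genes, the highest 1.11 times the lowest, with D-gel@NP below the other groups. Its relative Rrp1b varied more, the highest mean 1.94 times the lowest, and stood at 99.6, 96.7 and 93.3 CPM for D-gel@GSNP, 46.2, 52.6 and 50.5 for L-gel@GSNP, 52.3, 52.0 and 48.5 for D-gel@NP, 50.6, 51.3 and 56.1 for PBS, and 96.5, 93.2 and 90.2 for non-SP. Rrp1b was high in D-gel@GSNP and non-SP and overlapped among the rest.

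Grwd1, a chaperone of a ribosomal protein of the large subunit, stood at 81.7, 81.8 and 86.1 CPM for D-gel@GSNP, 29.98, 32.9 and 30.002 for L-gel@GSNP, 37.9, 37.1 and 35.1 for D-gel@NP, 38.7, 42.3 and 41.0 for PBS, and 83.1, 81.3 and 83.5 for non-SP. Noc2l, of a complex of the early large subunit precursor, stood at 118, 118 and 116 CPM for D-gel@GSNP, 51.5, 57.4 and 57.2 for L-gel@GSNP, 54.0, 60.4 and 54.4 for D-gel@NP, 52.0, 53.9 and 55.6 for PBS, and 106, 99.8 and 109.7 for non-SP. Noc3l, its partner in a later complex, stood at 57.4, 57.7 and 60.7 CPM for D-gel@GSNP, 47.9, 47.2 and 44.8 for L-gel@GSNP, 67.3, 61.2 and 62.3 for D-gel@NP, 62.7, 58.8 and 53.7 for PBS, and 60.02, 62.1 and 62.3 for non-SP. The partners differed: Noc2l was high in D-gel@GSNP and non-SP and overlapped among the other groups, while Noc3l had its highest mean in D-gel@NP, overlapping non-SP, and was lowest in all L-gel@GSNP libraries. Bop1, Pes1 and Wdr12 form 1 complex, PeBoW, that works on the large subunit RNA. Bop1 stood at 91.3, 89.1 and 85.4 CPM for D-gel@GSNP, 42.8, 40.8 and 40.6 for L-gel@GSNP, 50.4, 52.0 and 51.7 for D-gel@NP, 58.1, 55.1 and 54.8 for PBS, and 80.8, 81.1 and 84.8 for non-SP. Wdr12 stood at 138, 127 and 124 CPM for D-gel@GSNP, 72.3, 70.7 and 62.1 for L-gel@GSNP, 96.8, 99.2 and 107 for D-gel@NP, 115, 109 and 101 for PBS, and 132, 127 and 129 for non-SP. Pes1 averaged 174 CPM for D-gel@GSNP, 125 for L-gel@GSNP, 139 for D-gel@NP, 149.7 for PBS and 165 for non-SP. L-gel@GSNP was the lowest group for all 3.

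Rrs1, which helps to place the smallest ribosomal RNA in the large subunit, stood at 154, 151 and 148 CPM for D-gel@GSNP, 68.2, 76.3 and 69.5 for L-gel@GSNP, 96.2, 101 and 102 for D-gel@NP, 94.8, 101 and 98.3 for PBS, and 134, 129.6 and 137 for non-SP. Nop2, a methyltransferase of the large subunit RNA, stood at 295, 278 and 266 CPM for D-gel@GSNP, 140.3, 141 and 132 for L-gel@GSNP, 184, 183 and 177 for D-gel@NP, 195, 195 and 187 for PBS, and 260.2, 261 and 260.0 for non-SP. In both, D-gel@GSNP was above all other libraries and L-gel@GSNP below them. Ftsj3, another RNA methyltransferase, stood at 219.8, 204 and 206 CPM for D-gel@GSNP, 119, 117 and 109 for L-gel@GSNP, 129, 135 and 142 for D-gel@NP, 165, 159.7 and 146 for PBS, and 203, 207 and 197 for non-SP. Ebna1bp2, a nucleolar assembly factor, stood at 168, 161 and 159 CPM for D-gel@GSNP, 105, 98.9 and 91.8 for L-gel@GSNP, 104, 96.4 and 103 for D-gel@NP, 114, 109.6 and 111 for PBS, and 161, 164 and 159.7 for non-SP. PBS was above D-gel@NP in every library of both. The rest of this role had group means of 95.5 CPM in D-gel@GSNP down to 52.7 in L-gel@GSNP for Nop16, 97.6 CPM in D-gel@GSNP down to 62.3 in L-gel@GSNP for Nip7 and 70.8 CPM in D-gel@GSNP down to 51.5 in L-gel@GSNP for Wdr74.

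D-gel@GSNP minus PBS sets the D-gel labelled GSNP against cells of the same sort label in the same cytokines. Of the 44 genes 39 were higher in D-gel@GSNP and none lower by edgeR's quasi-likelihood test (adjusted p under 0.05), with a median log2 difference of 0.55, which is 1.46-fold. Over all tested genes 27.4% were higher and 27.5% lower, with a median of -0.02. At an unadjusted p under 0.05 the counts were also 39 higher and 0 lower, and DESeq2 gave 39 and 0. Over all tested genes DESeq2 gave 4739 higher and 4976 lower. The share of all genes at the unadjusted threshold was not counted. By role, 4 of 5 polymerase I genes, all 3 of either snoRNP class, 5 of 6 scaffold proteins, 11 of 12 small subunit factors and 13 of 15 large subunit factors rose. At least 2-fold rises were seen for 5 of the 44, against 3.34% of all genes.

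Polr1b rose most, to 70.4 ± 2.91 CPM in D-gel@GSNP libraries, beside 29.3 ± 3.06 CPM in PBS (SD, n = 3 each), 2.40-fold (log2 1.26, 95% interval 1.12 to 1.41, edgeR adjusted p = 1.33e-12). Noc2l rose 2.18-fold, Mybbp1a 2.16-fold, Grwd1 2.05-fold and Gar1 2.01-fold. Fbl rose 1.6-fold (log2 interval 0.56 to 0.78). Among small subunit factors Bysl rose 1.92-fold, Noc4l 1.82-fold and Rrp9 1.75-fold, and among large subunit factors Rrp1b rose 1.83-fold. The abundant Npm1 rose 1.3-fold (edgeR adjusted p = 2.38e-06).

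The 5 that did not pass were Rrn3 (log2 0.00, interval -0.09 to 0.10), Gnl3 (0.08, -0.03 to 0.19), Tsr1 (0.08, -0.03 to 0.20), Noc3l (0.01, -0.12 to 0.13) and Rrp1 (0.04, -0.05 to 0.13). Small changes within these intervals cannot be seen here. Polr1c and Nop14 passed with small rises of 1.13-fold and 1.14-fold that rested on single libraries: without PBS 3 the adjusted p of Polr1c was 0.0673 (log2 0.14), and without D-gel@GSNP 1 that of Nop14 was 0.0609 (log2 0.12). The libraries of the groups did not overlap, with D-gel@GSNP above, for 40 of the 44 genes, against 30.3% of all genes.

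**Figure D3:**
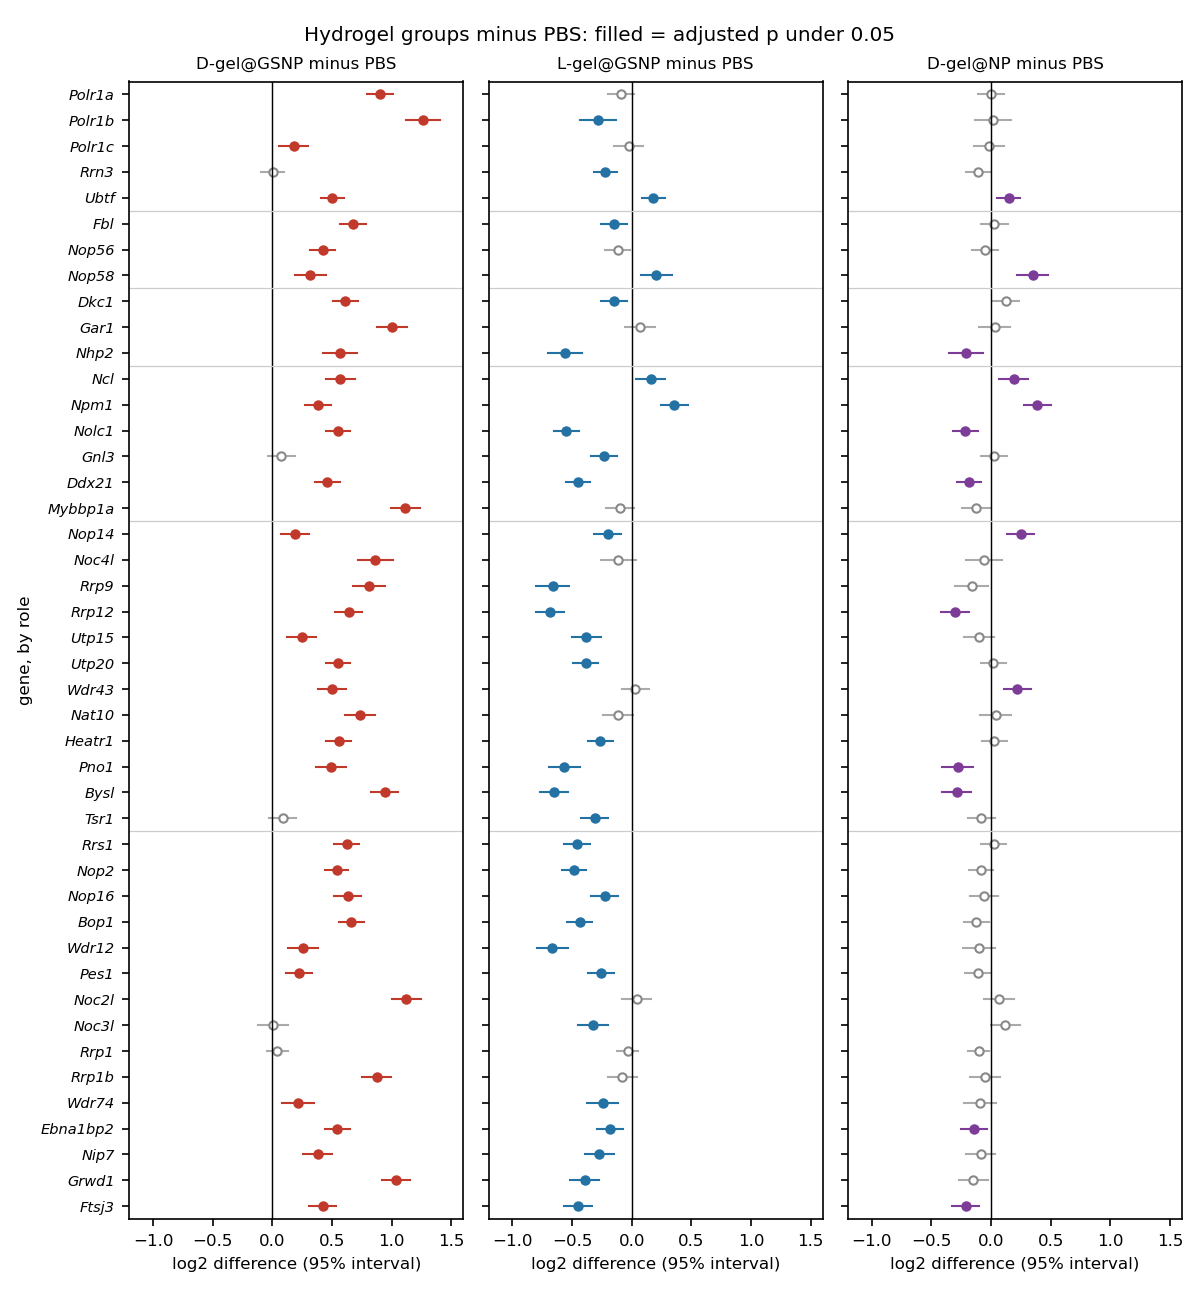
Log2 difference of each of the 44 genes from PBS, with its 95% interval, with the panels for D-gel@GSNP, L-gel@GSNP, D-gel@NP from left to right, genes ordered by role. Filled points passed at an edgeR adjusted p under 0.05: 39 higher in D-gel@GSNP, 4 higher and 29 lower in L-gel@GSNP, and 6 higher and 8 lower in D-gel@NP; all 3 panels share the PBS libraries.

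L-gel@GSNP against PBS puts the same question to the L-gel. Here 29 of the 44 genes were lower and 4 higher, with a median log2 difference of -0.24. Over all tested genes 24.1% were lower and 21.5% higher. Among assembly factors 9 of 12 small subunit and 12 of 15 large subunit factors fell and none rose (edgeR). At an unadjusted p under 0.05 none rose either, a threshold at which the share of all genes was not counted. None of the 44 changed 2-fold. The share of all tested genes at that limit is not given here, so nothing particular to the 44 is read from it. Rrp12 fell most, to 30.7 ± 1.26 CPM in L-gel@GSNP libraries, beside 49.4 ± 1.15 CPM in PBS (log2 -0.69, interval -0.80 to -0.57, edgeR adjusted p = 1.85e-09). Wdr12 fell by 0.67, Rrp9 by 0.66, Bysl by 0.65, Nop2 by 0.48 and Rrs1 by 0.46 on the log2 scale. Of the other roles Nhp2 fell by 0.56, Nolc1 by 0.55 and Polr1b by 0.28.

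The 4 genes that rose in L-gel@GSNP over PBS were Npm1, Nop58, Ubtf and Ncl. Npm1 averaged 1624 ± 106 CPM in L-gel@GSNP libraries, beside 1268 ± 43.5 CPM in PBS, 1.28-fold higher (edgeR adjusted p = 1.02e-05). Nop58 was 1.15-fold, Ubtf 1.13-fold and Ncl 1.12-fold higher. Not called were Polr1a and Polr1c of polymerase I, Nop56, Gar1, Mybbp1a, the small subunit factors Nat10, Noc4l and Wdr43, and the large subunit factors Noc2l, Rrp1 and Rrp1b. Among the calls 5 depended on single libraries. Nop58 was lost without PBS 3 (edgeR adjusted p = 0.0521). Ncl was lost without L-gel@GSNP 1, L-gel@GSNP 2 or PBS 2 (0.0962 to 0.107). Fbl, with a fall of 0.15, was lost without L-gel@GSNP 1, L-gel@GSNP 3, PBS 2 or PBS 3 (0.0607 to 0.229). Dkc1 was lost without L-gel@GSNP 3 (0.223) or PBS 1 (0.0866), and Ebna1bp2 without L-gel@GSNP 3 (0.0623). Leaving out PBS 1 brought Polr1a past the threshold (0.0410) and leaving out PBS 3 brought Nop56 (0.0294), both as falls.

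Set against the same PBS libraries, 25 of the 44 genes were higher in D-gel@GSNP and lower in L-gel@GSNP. Among all tested genes 27.4% were higher in D-gel@GSNP than in PBS and 24.1% were lower in L-gel@GSNP than in PBS. The share of all genes with both calls was not counted, so the 25 is a description only. Both calls use the PBS libraries, and the direct comparison of the gels is given below. The library that was deepest, L-gel@GSNP 3, also had the lowest member levels of its group, with a summed share of 0.776%. Without it the median log2 difference from PBS was -0.19, the smallest in size of the 6 values with 1 library left out, against -0.24.

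D-gel@NP against PBS puts it to the D-gel labelled NP. It gave the smallest median shift of the gel groups, with 6 of the 44 genes higher and 8 lower and a median log2 difference of -0.06. These shares are near those of all tested genes, of which 14.2% were higher and 16.3% lower. The 6 that rose were Npm1, Nop58, Nop14, Wdr43, Ncl and Ubtf. Npm1 rose 1.31-fold to 1658 ± 131 CPM in D-gel@NP libraries, beside 1268 ± 43.5 CPM in PBS, and Nop58 rose 1.27-fold (edgeR adjusted p = 0.000204). The 8 that fell were Rrp12, Bysl, Pno1, Nolc1, Nhp2, Ftsj3, Ddx21 and Ebna1bp2, by 0.30 for Rrp12, 0.29 for Bysl, 0.28 for Pno1, 0.22 for Nolc1, 0.21 for Nhp2, 0.21 for Ftsj3, 0.19 for Ddx21 and 0.14 for Ebna1bp2 on the log2 scale. All 8 were also lower in L-gel@GSNP than in PBS. The PBS libraries are the same in both comparisons, and 29 of the 44 genes were lower in L-gel@GSNP. Among all tested genes 24.1% were lower in L-gel@GSNP than in PBS, and the share lower in both gel groups was not counted.

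Not called in this comparison were Polr1a, Polr1b, Polr1c and Rrn3 of polymerase I, Fbl and Nop56, Dkc1 and Gar1, and Gnl3 and Mybbp1a. In the assembly roles 7 small subunit and 13 large subunit factors did not pass. Nop14 was the 1 gene called in opposite directions for D-gel@NP and L-gel@GSNP against PBS, 1.19-fold higher in D-gel@NP and 1.15-fold lower in L-gel@GSNP. Several calls rested on 1 library. Ubtf was lost without D-gel@NP 1 (edgeR adjusted p = 0.0578) or PBS 3 (0.0517), Ncl without D-gel@NP 1, D-gel@NP 3 or PBS 2 (0.0613 to 0.0803), and Nhp2 without D-gel@NP 2, D-gel@NP 3, PBS 1 or PBS 2 (0.0744 to 0.137). Ebna1bp2 was lost in each of the 6 fits with 1 library left out (0.0623 to 0.213). Dkc1 (0.0438), Mybbp1a (0.0496) and Rrp9 (0.0218) passed without D-gel@NP 1, and Mybbp1a (0.0486), Noc3l (0.0353) and Grwd1 (0.0439) without PBS 1.

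PBS against non-SP asks how the Hoechst-CD133+, cytokine-treated cells differed from the untreated non-SP cells. Of the 44 genes 37 were lower in PBS and none higher (edgeR), with a median log2 difference of -0.46, while 26.1% of all tested genes were lower and 27.6% higher. At an unadjusted p under 0.05 the counts were 38 lower and 0 higher, and DESeq2 gave 37 and 0. Over all tested genes DESeq2 gave 4594 lower and 4954 higher, and the share at the unadjusted threshold was not counted. The PBS libraries are those of the hydrogel comparisons. Polr1b fell to 29.3 ± 3.06 CPM in PBS libraries, beside 69.3 ± 2.73 CPM in non-SP (log2 -1.24, interval -1.39 to -1.09, edgeR adjusted p = 2.08e-12). Grwd1 fell by 1.02, Mybbp1a by 0.99, Noc2l by 0.97, Gar1 by 0.87, Bysl by 0.86, Rrp1b by 0.83, Noc4l by 0.80, Rrp9 by 0.72 and Fbl by 0.58 on the log2 scale. Rrn3, Gnl3, Nop14, Tsr1, Noc3l, Rrp1 and Wdr74 did not pass, with log2 differences between -0.13 (Wdr74) and 0.08 (Rrn3). Of the 37 calls, Polr1c was lost without PBS 2, PBS 3 or non-SP 1 (adjusted p 0.0586 to 0.0822), Utp15 without PBS 3 or non-SP 2 (0.0715 to 0.114) and Pes1 without PBS 2, PBS 3 or non-SP 2 (0.0838 to 0.107).

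D-gel@GSNP against L-gel@GSNP sets the D-gel against the L-gel with the same GSNP label, after the same ice step and cytokines. This gave the widest difference of the 8 comparisons by median: 41 of the 44 genes were higher in D-gel@GSNP and none lower, with a median log2 difference of 0.85, which is 1.81-fold. Of all tested genes 30.5% were higher and 31.3% lower, with a median of -0.04. An unadjusted p under 0.05 also gave 41 and 0, as did DESeq2. Over all tested genes DESeq2 gave 5276 higher and 5591 lower, and the share at the unadjusted threshold was not counted. All 5 polymerase I genes, all 3 H/ACA proteins and all 12 small subunit factors rose, with 2 of 3 C/D proteins, 5 of 6 scaffold proteins and 14 of 15 large subunit factors. With upper-quartile scaling Rrn3 (log2 0.08, edgeR adjusted p = 0.152) and Polr1c (0.06, 0.418) lost their calls, which leaves 3 of the 5 polymerase I genes, and Polr1c was also lost with counts thinned to the shallowest library (0.164). At least 2-fold rises were seen for 13 of the 44, against 5.46% of all genes.

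Bysl differed most, at 99.5 ± 3.81 CPM in D-gel@GSNP and 33.0 ± 0.105 CPM in L-gel@GSNP, 3.01-fold (log2 1.59, interval 1.47 to 1.71, edgeR adjusted p = 6.6e-16). Polr1b was 2.92-fold, Rrp9 2.77-fold, Grwd1 2.69-fold and Rrp12 2.51-fold higher. Mybbp1a was 2.32-fold, Nhp2 2.18-fold, Bop1 2.14-fold, Rrs1 2.12-fold and Fbl 1.77-fold higher. The 3 genes that did not pass were Npm1 (log2 0.03, interval -0.09 to 0.14), Nop58 (0.11, -0.02 to 0.24) and Rrp1 (0.07, -0.01 to 0.16). Nop58 passed without D-gel@GSNP 2 (edgeR adjusted p = 0.0449), and Polr1c, 1.15-fold higher, was lost without L-gel@GSNP 3 (0.0642). D-gel@GSNP libraries were all above L-gel@GSNP libraries for 42 of the 44 genes, against 32.9% of all genes.

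**Figure D4:**
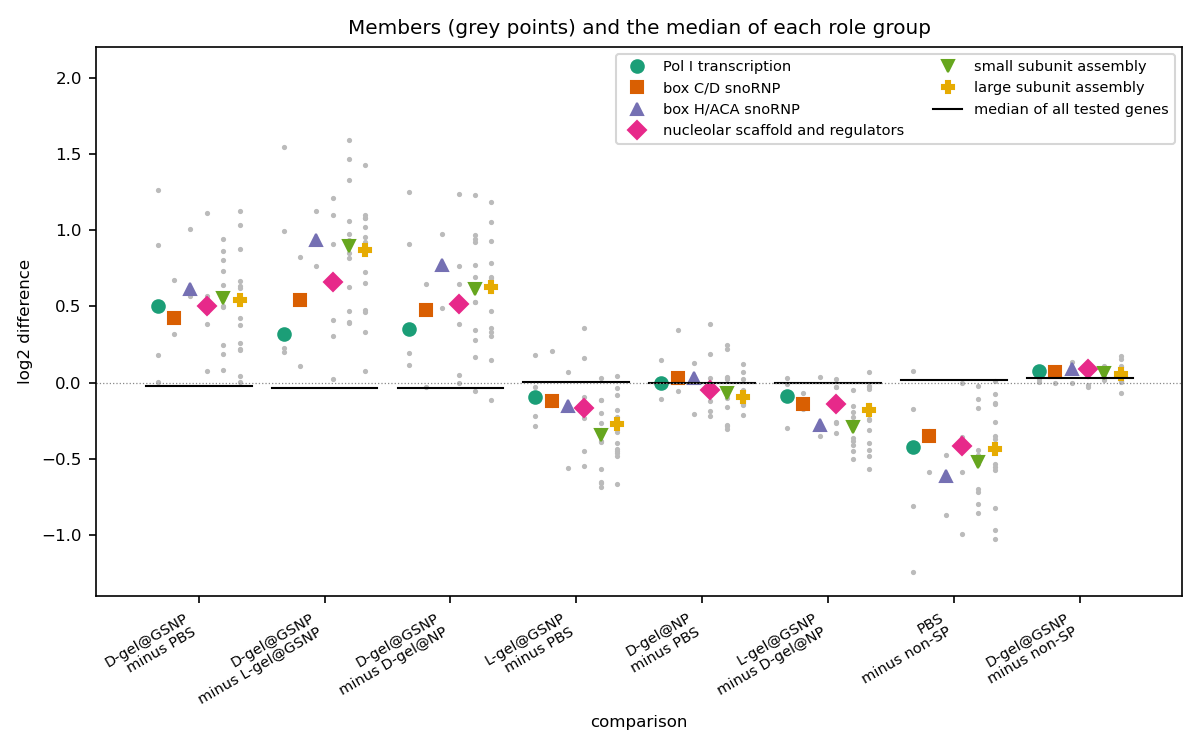
Log2 difference of each of the 44 genes (grey points) in each of the 8 comparisons, with the median of each role group as a coloured mark and the median of all tested genes as a black line. The medians of all 6 role groups stand above the line of all genes where D-gel@GSNP is set against L-gel@GSNP, D-gel@NP or PBS, with Nop14 and Noc3l below it against D-gel@NP. They stand below it for PBS minus non-SP, with Rrn3 above it, and close to it for D-gel@GSNP minus non-SP.

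D-gel@GSNP against D-gel@NP sets GSNP against NP in the D-gel. In D-gel@GSNP 39 of the 44 genes were higher and none lower, with a median log2 difference of 0.61, while 28.8% of all tested genes were higher and 29.6% lower. This comparison and the one with L-gel@GSNP share the D-gel@GSNP libraries. The counts at an unadjusted p under 0.05 were 39 and 0, and DESeq2 gave 38 and 0. Over all tested genes DESeq2 gave 4979 higher and 5315 lower, and the share at the unadjusted threshold was not counted. Polr1b was 2.37-fold, Mybbp1a 2.36-fold, Bysl 2.34-fold, Grwd1 2.27-fold and Noc2l 2.08-fold higher. Gar1 was 1.97-fold, Rrp9 1.96-fold, Rrp12 1.92-fold, Rrp1b 1.9-fold and Fbl 1.57-fold higher. Mybbp1a averaged 733 ± 16.8 CPM in D-gel@GSNP and 311 ± 21.9 CPM in D-gel@NP (log2 1.24, interval 1.12 to 1.36, edgeR adjusted p = 5.56e-14).

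The 5 genes that did not pass were Nop58 (log2 -0.03), Npm1 (interval -0.12 to 0.11), Gnl3 (0.05), Nop14 (-0.06) and Noc3l (-0.11). For Noc3l every D-gel@GSNP library was below every D-gel@NP library. Nop14 passed as lower without D-gel@GSNP 1 (edgeR adjusted p = 0.0457). Rrn3, 1.08-fold higher, was lost in 5 of the 6 fits with 1 library left out, all but that without D-gel@GSNP 3 (0.0924 to 0.188), and with upper-quartile scaling its sign turned. Over all 18 alternatives the call of Rrn3 was kept in 4. It was also lost with DESeq2, every limma fit, RLE scaling, no filter, the filter of 1 CPM and only these 6 libraries. Without D-gel@NP 1 the calls of Polr1c (0.0575), Tsr1 (0.0569) and Rrp1 (0.0683) were also lost, and Tsr1 was lost without D-gel@NP 2 (0.0711).

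D-gel@GSNP against non-SP asks how far the treated Hoechst-CD133+ cells stood from the untreated cells. None of the 44 genes passed in either direction by edgeR or by DESeq2, and 8 were higher and 0 lower at an unadjusted p under 0.05. The share of all tested genes at that unadjusted threshold was not counted, so no lean of the members is read from it. At the adjusted threshold 0.417% of all tested genes passed, 0.103% higher and 0.314% lower. The median log2 difference was 0.07 over the 44 genes and 0.03 over all genes, with members between -0.07 (Noc3l) and 0.17 (Rrs1). For Polr1b the means were 70.4 ± 2.91 CPM in D-gel@GSNP and 69.3 ± 2.73 CPM in non-SP, with a log2 interval of -0.12 to 0.16. Rrs1 had the largest difference, 1.13-fold higher in D-gel@GSNP (interval 0.07 to 0.28, edgeR adjusted p = 0.170), and it passed when only these 6 libraries were fitted (0.0364). A p that misses the threshold does not show equal levels. The D-gel@GSNP libraries are those of the comparisons above. In 19 of the 44 genes all D-gel@GSNP libraries were above all non-SP libraries and in none below, against 13.6% and 6.74% of all genes.

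L-gel@GSNP against D-gel@NP sets gel groups that differ in both the gel and the code. In L-gel@GSNP 26 of the 44 genes were lower and none higher, with a median log2 difference of -0.21, while 11.1% of all tested genes were lower and 8.33% higher. At an unadjusted p under 0.05 the counts were 31 lower and 0 higher, and DESeq2 gave 27 and 0. Over all tested genes DESeq2 gave 2151 lower and 1642 higher, and the share at the unadjusted threshold was not counted. The falls included 10 of 12 small subunit factors, 9 of 15 large subunit factors and 3 of 6 scaffold proteins. Wdr12 fell by 0.57, Rrp9 by 0.50, Rrs1 by 0.48, Nop14 by 0.45, Noc3l by 0.44, Utp20 by 0.41, Nhp2 by 0.35, Nolc1 by 0.33, Polr1b by 0.30 and Fbl by 0.17 on the log2 scale. Wdr12 averaged 68.4 ± 5.47 CPM in L-gel@GSNP and 101 ± 5.15 CPM in D-gel@NP (edgeR adjusted p = 1.93e-06). Without 1 library, Fbl, Wdr43, Nop16 and Nip7 lost their calls, in each case without L-gel@GSNP 3 (0.104 to 0.150) and D-gel@NP 3 (0.0677 to 0.197), as well as without D-gel@NP 1 for Fbl (0.0595), Wdr43 (0.0668) and Nop16 (0.106). Nop16 and Nip7 also lost theirs without L-gel@GSNP 2 (0.0687 and 0.0607) or D-gel@NP 2 (0.0603 and 0.0606), and Pes1 passed without L-gel@GSNP 2 (0.0393).

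The wider pathway was followed with lists of genes beside the 44. In D-gel@GSNP against PBS, 32 of 40 further small subunit genes rose and none fell, 26 of 39 large subunit genes rose and 1 fell, and 7 of 9 other snoRNP genes and 7 of 10 other polymerase I genes rose. Of 12 genes of the RNA exosome, which trims ribosomal RNA precursors, 10 rose, and of 18 genes of polymerase III, which makes transfer RNAs, 14 rose and 1 fell. For comparison, 27.4% of all tested genes rose and 27.5% fell. The largest rises in these lists were those of Naf1, an H/ACA assembly factor (2.44-fold), Dis3, a nuclease of the exosome (2.42-fold), Pelp1, a large subunit factor (2.18-fold), Gtf3a, an initiation factor of polymerase III (1.99-fold), Nol10 of the small subunit (1.91-fold) and Taf1b of polymerase I (1.63-fold). The same lists against L-gel@GSNP gave 34 of 40 small subunit genes higher and 1 lower in D-gel@GSNP, 34 of 39 large subunit genes, 9 of 9 snoRNP genes, 12 of 12 exosome genes, 5 of 10 polymerase I genes with 1 lower, and 14 of 18 polymerase III genes with 1 lower. Among all tested genes 30.5% were higher and 31.3% lower there. Polr3g, a polymerase III subunit, led with 3.07-fold, followed by Nol9 with 2.79-fold, Polr1e with 2.45-fold and Dhx37 with 2.44-fold. Against D-gel@NP the counts were 29 higher and 2 lower of 40 small subunit genes, 28 and 0 of 39 large subunit genes, 7 and 0 of 9 snoRNP genes, 11 and 0 of 12 exosome genes, 6 and 1 of 10 polymerase I genes, and 14 and 3 of 18 polymerase III genes, with Dis3 2.45-fold and Nol9 2.39-fold higher. The shares of all tested genes in this comparison were 28.8% higher and 29.6% lower.

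In L-gel@GSNP against PBS the further small subunit genes fell in 23 of 40 cases and none rose, and the large subunit genes fell in 25 of 39 and rose in 3. Exosome genes fell in 6 of 12 and rose in none, snoRNP genes fell in 4 of 9 and rose in 2, polymerase III genes fell in 5 of 18 and rose in 3, and polymerase I genes were split at 3 each of 10. Among all tested genes 24.1% fell and 21.5% rose, near the shares of the polymerase III and polymerase I lists. Polr3g fell by 0.88 on the log2 scale, Rrp36 by 0.61, Exosc2 by 0.60, Nop10 by 0.58 and Ddx31 by 0.48, while Taf1b rose by 0.75. For D-gel@NP against PBS there were 4 higher and 7 lower of 40 small subunit genes, 4 and 6 of 39 large subunit genes, 1 and 2 of 9 snoRNP genes, 2 and 2 of 10 polymerase I genes, 0 and 5 of 12 exosome genes, and 2 and 4 of 18 polymerase III genes. Of all tested genes 14.2% were higher and 16.3% lower, so the shares of the small and large subunit lists were near those of all genes. Esf1 rose by 0.43, Naf1 by 0.40 and Mdn1 by 0.35, and Polr3g fell by 0.48, Exosc2 by 0.41 and Polr1e by 0.38.

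PBS against non-SP gave 31 of 40 small subunit genes lower and 2 higher, 25 of 39 large subunit genes lower and 3 higher, 11 of 12 exosome genes, 8 of 10 polymerase I genes and 6 of 9 snoRNP genes lower, and 15 of 18 polymerase III genes lower with 2 higher. Among all tested genes 26.1% were lower and 27.6% higher. Naf1 fell by 1.22 on the log2 scale, Dis3 by 1.2, Pelp1 by 1.1, Nol10 by 0.87, Gtf3c2 by 0.68 and Taf1b by 0.64. Between D-gel@GSNP and non-SP 2 of these genes passed, both lower in D-gel@GSNP: Esf1, a small subunit factor (1.24-fold, edgeR adjusted p = 0.0451), and Bdp1 of polymerase III (1.21-fold, 0.0408). In that comparison 0.417% of all tested genes passed. In L-gel@GSNP against D-gel@NP 21 of 40 small subunit genes and 20 of 39 large subunit genes were lower and none higher, with Mdn1 lower by 0.36 and Utp18 by 0.33. Among all tested genes 11.1% were lower and 8.33% higher. The other lists held few calls there, 3 lower of 9 snoRNP genes (Znhit6 by 0.40), 1 higher and 1 lower of 10 polymerase I genes (Taf1b higher by 0.37), 1 higher and 2 lower of 12 exosome genes (Mphosph6 higher by 0.37) and 2 lower of 18 polymerase III genes (Polr3g by 0.39).

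Myc RNA did not follow the order of the 44 genes. It stood at 189, 208 and 177 CPM for D-gel@GSNP, 187, 194 and 213 for L-gel@GSNP, 208, 234 and 207 for D-gel@NP, 153, 166 and 172 for PBS, and 193, 195 and 197 for non-SP. D-gel@NP had the highest mean and all PBS libraries were below all others, while D-gel@GSNP, L-gel@GSNP and non-SP overlapped. Against PBS, Myc was 1.17-fold higher in D-gel@GSNP (edgeR adjusted p = 0.00419), 1.21-fold higher in L-gel@GSNP (0.00114) and 1.32-fold higher in D-gel@NP (5.12e-05). Myc was 1.19-fold lower in PBS than in non-SP (0.00185) and 1.13-fold lower in D-gel@GSNP than in D-gel@NP (0.0220). It did not pass between D-gel@GSNP and L-gel@GSNP (log2 interval -0.18 to 0.08), between D-gel@GSNP and non-SP (-0.16 to 0.11) or between L-gel@GSNP and D-gel@NP (edgeR adjusted p = 0.178).

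Mxd4, which encodes a MAX partner that opposes MYC, was low where most of the 44 genes were high, at 14.8, 14.6 and 14.2 CPM for D-gel@GSNP, 72.2, 70.4 and 65.6 for L-gel@GSNP, 63.4, 68.6 and 65.5 for D-gel@NP, 54.6, 54.8 and 59.8 for PBS, and 14.999, 13.8 and 14.1 for non-SP. It was 3.88-fold lower in D-gel@GSNP than in PBS, 4.78-fold lower than in L-gel@GSNP and 4.54-fold lower than in D-gel@NP, and 3.94-fold higher in PBS than in non-SP. Mxd3, of the same family of MAX partners, moved the other way: it was 1.87-fold higher in D-gel@GSNP than in PBS, 2.26-fold higher than in L-gel@GSNP and 2.78-fold higher than in D-gel@NP, and 1.89-fold lower in PBS than in non-SP. Of the 11 genes of the MYC network 3 were higher and 5 lower in D-gel@GSNP against PBS, 4 and 4 against L-gel@GSNP, and 4 and 6 against D-gel@NP, and 6 were higher and 3 lower in PBS against non-SP. Of all tested genes 27.4% were higher and 27.5% lower in D-gel@GSNP against PBS, and 30.5% and 31.3% against L-gel@GSNP, and nothing particular to the network is read from counts over 11 genes. In L-gel@GSNP against PBS 4 were higher and 3 lower, with Mxi1, another MAX partner, 1.88-fold higher, and in D-gel@NP against PBS 3 were higher and 2 lower, with Mxd3 1.49-fold lower. Mga was 1.24-fold lower in D-gel@GSNP than in non-SP, the 1 call of the list there, and Mycn was 1.77-fold higher in L-gel@GSNP than in D-gel@NP, beside 1 more higher and 3 lower.

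**Figure D5:**
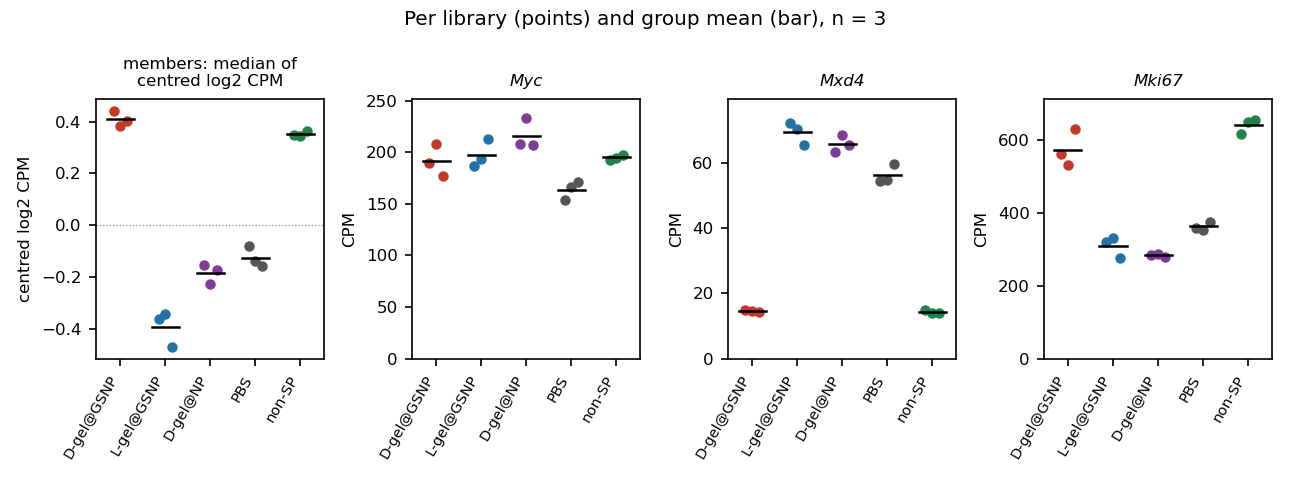
Values per library (points) with the group mean (bar), n = 3 in each group, of the median centred log2 CPM of the 44 genes and of the levels of Myc, Mxd4 and Mki67 in CPM. Mxd4 is low and Mki67 high in D-gel@GSNP and non-SP, while Myc is lowest in PBS, at 153 to 172 CPM.

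Cell cycle genes moved in the same comparisons. Mki67, a proliferation marker, stood at 559, 529 and 629 CPM for D-gel@GSNP, 320.2, 331 and 274 for L-gel@GSNP, 284, 286 and 277 for D-gel@NP, 359, 353 and 375 for PBS, and 615, 649 and 652 for non-SP. Plk1, a mitotic kinase, stood at 164, 156 and 144 CPM for D-gel@GSNP, 31.3, 38.3 and 33.2 for L-gel@GSNP, 37.3, 35.6 and 35.1 for D-gel@NP, 44.8, 51.8 and 53.2 for PBS, and 142, 140.2 and 143 for non-SP. Both were high in all D-gel@GSNP and non-SP libraries and low in all others. Of 13 cycling genes 12 were higher in D-gel@GSNP than in PBS, 13 than in L-gel@GSNP and 13 than in D-gel@NP, and 12 were lower in PBS than in non-SP. Among all tested genes these shares were 27.4%, 30.5% and 28.8% higher, and 26.1% lower. In L-gel@GSNP 10 were lower than in PBS and none higher, led by Rrm2 (1.53-fold lower), and in D-gel@NP 7 were lower and 2 higher, led by Aurkb (1.41-fold lower). In L-gel@GSNP 4 were lower than in D-gel@NP and none higher, led by Mcm3 (1.24-fold lower), and none passed between D-gel@GSNP and non-SP. The share of all tested genes that were lower was 24.1% in L-gel@GSNP and 16.3% in D-gel@NP, both against PBS. It was 11.1% in L-gel@GSNP against D-gel@NP. Plk1 was 3.1-fold higher in D-gel@GSNP than in PBS and 4.52-fold higher than in L-gel@GSNP. Whether the members' differences follow from the share of cycling cells was not tested.

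Failed ribosome assembly is known to free ribosomal proteins that hold back MDM2 and so raise p53, and 10 genes of that axis were followed. Cdkn1a, the p53 target that encodes p21, stood at 135, 141 and 131 CPM for D-gel@GSNP, 292, 285 and 329 for L-gel@GSNP, 353, 365 and 320.3 for D-gel@NP, 337, 346 and 340.1 for PBS, and 133, 132 and 131 for non-SP. Mdm2 stood at 132, 129.7 and 139.8 CPM for D-gel@GSNP, 190.4, 194 and 203 for L-gel@GSNP, 244, 276 and 254 for D-gel@NP, 294, 281 and 278 for PBS, and 129, 131 and 129.8 for non-SP. Trp53 itself stood at 219.8, 221 and 214 CPM for D-gel@GSNP, 148, 160.1 and 145 for L-gel@GSNP, 149, 174 and 164 for D-gel@NP, 127, 142 and 146 for PBS, and 206, 198 and 206 for non-SP. Cdkn1a and Mdm2 were low and Trp53 high in D-gel@GSNP and non-SP, with no overlap with the other groups. In D-gel@GSNP 3 of the 10 were higher and 4 lower than in PBS, 1 higher and 6 lower than in L-gel@GSNP, and 1 higher and 6 lower than in D-gel@NP. The shares of all tested genes were 27.4% higher and 27.5% lower, 30.5% and 31.3%, and 28.8% and 29.6%, in the same order. Nothing particular to the axis is read from counts over 10 genes. Ccng1, another p53 target, was 2.86-fold lower in D-gel@GSNP than in PBS, 2.65-fold lower than in D-gel@NP, and 2.75-fold higher in PBS than in non-SP, where 4 of the 10 were higher and 3 lower. Cdkn1a was 2.22-fold lower in D-gel@GSNP than in L-gel@GSNP. In L-gel@GSNP against PBS 4 were higher and 3 lower, with Mdm4 1.62-fold higher, and in D-gel@NP 5 were higher and 1 lower, with Rpl5 1.42-fold higher. In L-gel@GSNP 1 was higher and 3 lower than in D-gel@NP, with Mdm2 1.32-fold lower, and none passed between D-gel@GSNP and non-SP. Over all tested genes 21.5% were higher and 24.1% lower in L-gel@GSNP against PBS, and 14.2% and 16.3% in D-gel@NP against PBS. The shares were 8.33% and 11.1% in L-gel@GSNP against D-gel@NP, and 27.6% and 26.1% in PBS against non-SP.

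Other values moved beside these results. Mitochondrially encoded genes took 2.82% to 3.37% of all counts in D-gel@GSNP, 4.28% to 4.63% for L-gel@GSNP, 4.47% to 4.84% for D-gel@NP, 5.69% to 6.35% in PBS and 2.82% to 2.92% in non-SP. The summed level of the macrophage and microglia markers (10 of 12 in the table) was 12.02 to 12.96 CPM in D-gel@GSNP, 38.5 to 45.1 in L-gel@GSNP, 32.7 to 40.6 in D-gel@NP, 66.8 to 74.7 in PBS and 11.1 to 11.3 in non-SP. Most of it was Cd68 and Csf1r, and Tyrobp had no counts in L-gel@GSNP, PBS and non-SP and 2 in D-gel@GSNP and D-gel@NP each. Fibroblast markers (5 of 6 in the table) summed to 688 to 712 CPM in D-gel@GSNP, 1309 to 1468 in L-gel@GSNP, 1454 to 1511 in D-gel@NP, 1291 to 1366 in PBS and 693 to 721 in non-SP, nearly all of it Dcn. Col1a1 went the other way, at 14.4 CPM in D-gel@GSNP, 3.06 for L-gel@GSNP, 1.44 for D-gel@NP, 1.58 in PBS and 13.4 in non-SP. Pdgfra averaged 35.8 CPM in D-gel@GSNP, 14.4 for L-gel@GSNP, 23.2 for D-gel@NP, 50.5 in PBS and 35.02 in non-SP. Thy1 was at 0 outside PBS, and Col1a2 had at most 8 counts in a group. Endothelial markers (4 of 5) summed to 0.736 to 1.77 CPM and lymphocyte markers (5 of 5) to 0.121 to 0.596 CPM over all libraries. The part of these values in the members' differences was not tested.

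Some counts are uncertain because the strand setting and the handling of reads with several matches are not given in the sources used here. Exons of Bop1, Bysl, Dkc1, Gnl3, Heatr1, Mybbp1a, Nhp2, Nop56, Pno1, Rrp1b, Rrp9, Tsr1 and Wdr12 overlap those of a protein-coding gene on the opposite strand with counts of its own, as Rrp9 does with Parp3 (25880 counts for Rrp9 and 38053 for Parp3 over all libraries) and Bysl with Ccnd3 (41667 and 31695). Noc2l and Pes1 overlap such a gene with few counts. The genes Gnl3, Ncl, Nop56 and Nop58 overlap snoRNA genes on their own strand. Npm1 has processed copies in the genome, and Rrp1 and Rrp1b are relatives, so reads could have been split between them.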

How the data were processed

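RNA was extracted with TRIzol and sequenced from both ends, per the labels' protocols. The submitters' processing notes name fastp 0.22.0, HISAT2 2.1.0, featureCounts, DESeq2 and the mouse build GRCm39; the annotation release, strand and multi-mapping settings are not given in the sources used here. The authors deposited a table of raw counts per gene, and FPKM beside them; for all 34259 genes the deposited FPKM equalled the count per fixed length and library total (tolerance 0.0001). The FPKM were used here only for levels between genes and in alternatives. Symbols were matched by identifier to an earlier annotation (32434 genes named).

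Counts of all 15 libraries were fitted together with edgeR 4.0.16 (TMM factors, filter on low counts by group, quasi-likelihood test, 17497 genes, Benjamini-Hochberg adjusted p under 0.05 over all of them, 95% intervals) in R 4.3.3. CPM are counts scaled by library size and TMM factor. Counts of genes at an unadjusted p under 0.05 were made for the members only. The code was tested on simulated data. The shallowest library held 16626413 counts, and intervals cover the spread between libraries. Alternatives were other scalings and filters, leaving out each library, a replicate block, DESeq2 1.42.0 and limma 3.58.1 on log2(FPKM + 1) or log2(FPKM + 0.1). Of 163 further pathway genes 162 were in the table, 4 by an older symbol.

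The members and lists were chosen with earlier results of these data known. By rule the text names, in each role, the member with the highest mean FPKM and, in each comparison, the called members with the largest log2 difference (up to 3 in the 2 assembly roles, 1 in the others), the members that did not pass where a role had at most 5 of them, the called gene of largest difference in each pathway list, and Myc. Members whose call changed with 1 library were named after their values were seen.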

Additional observations from a re-analysis of the deposited data

How the results depend on the processing

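Of 6336 member results under the alternatives, 6148 stayed on their side of the threshold, 135 lost their call with the same sign and 52 gained one. The call of 1 more was lost with a change of sign. This was Rrn3 in D-gel@GSNP minus D-gel@NP, at -0.00849 with upper-quartile scaling (edgeR adjusted p = 0.890). Changes of sign in results called in neither fit were not counted. In D-gel@NP against PBS 13 members were lower with limma on filtered log2(FPKM + 1) and on filtered log2(FPKM + 0.1), instead of 8. In PBS against non-SP 1 member, Rrn3, was higher with upper-quartile scaling and with both filtered limma fits, instead of 0. In D-gel@GSNP against D-gel@NP, members lower were 3 with upper-quartile scaling (Nop58, Nop14 and Noc3l), 2 with both filtered limma fits (Nop14 and Noc3l), and 1 (Noc3l) with unfiltered limma, with a filter of 1 CPM in 3 libraries and with counts thinned to the shallowest library, instead of 0; with 1 library left out there were 0 to 1. In D-gel@GSNP against non-SP 1 member, Rrs1, was higher with only these 6 libraries, instead of 0. With upper-quartile scaling calls were also lost by Polr1c, Nop14 and Wdr74 in D-gel@GSNP against PBS, Fbl, Dkc1 and Ebna1bp2 in L-gel@GSNP against PBS, Nhp2 and Ebna1bp2 in D-gel@NP against PBS, Polr1c, Utp15 and Pes1 in PBS against non-SP, Polr1c, Tsr1 and Rrp1 in D-gel@GSNP against D-gel@NP, and Fbl, Nop16 and Nip7 in L-gel@GSNP against D-gel@NP. Causes of these changes were not tested.

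Upper-quartile scaling moved the median of all genes to -0.18 in D-gel@GSNP minus L-gel@GSNP and -0.16 in D-gel@GSNP minus D-gel@NP, against -0.04 in both with TMM. The genes called higher and lower over all genes became 4180 and 6778 (TMM 5339 and 5475) and 3961 and 6303 (5031 and 5183) in those comparisons, 4560 and 3421 in L-gel@GSNP minus PBS (3761 and 4218), 2974 and 2221 in D-gel@NP minus PBS (2479 and 2848), and 1720 and 1645 in L-gel@GSNP minus D-gel@NP (1457 and 1948). Over all settings without leaving out a library the members' median stayed within 0.71 to 0.85 in D-gel@GSNP minus L-gel@GSNP, 0.47 to 0.57 in D-gel@GSNP minus PBS and -0.24 to -0.17 in L-gel@GSNP minus PBS. Over all genes D-gel@GSNP minus non-SP had 18 higher and 55 lower with edgeR, and 44 and 152 with DESeq2.

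Same-numbered libraries of the groups did not deviate together (correlations -0.0201 to 0.0357), and not every library correlated best with its own number, so the numbers were not taken as pairs. With the replicate block the members called were 39 in D-gel@GSNP minus PBS, 34 in L-gel@GSNP minus PBS (4 higher and 30 lower), 14 in D-gel@NP minus PBS, 37 in PBS minus non-SP, 41 in D-gel@GSNP minus L-gel@GSNP, 39 in D-gel@GSNP minus D-gel@NP, 0 in D-gel@GSNP minus non-SP and 27 in L-gel@GSNP minus D-gel@NP; over all genes the block gave 11 higher and 23 lower in D-gel@GSNP minus non-SP.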
